A study of Mus with 16 samples.

Results

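*Rxfp1* (ENSMUSG00000034009) and *Rxfp2* (ENSMUSG00000053368) encode the relaxin family receptors RXFP1 and RXFP2. They are 2 of the 54219 Ensembl genes counted in this series and were picked by identifier. The pair was chosen by the fall of *Rxfp2* in *Kdm5c*-KO males in these same animals, so the male values are given as a description without a test. *Rxfp2* was checked against the study's list of called genes, which gives the same identifier. *Rxfp1* is not in that list, and its identifier is the one given with the symbol when the pair was chosen. The animals were postnatal day 6 mice whose forebrain (hippocampus together with cortex) was dissected for poly(A) mRNA-seq. The groups were 4 WT males, 4 *Kdm5c*-KO males, which carry the deletion on their only X chromosome, 4 WT females, and 4 *Kdm5c*-HET females, which carry it on 1 of their X chromosomes. The allele is a Cre-mediated deletion of exons of *Kdm5c*, the X-linked gene for a histone H3K4 demethylase. It was kept on a mixed C57BL/6J and 129S1/SvImJ background, and the animals came from several litters. Both genes passed the filter on low counts, which left 17866 genes tested.

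RXFP1 and RXFP2 are G protein-coupled receptors with a large leucine-rich-repeat domain outside the cell, related to the receptors for glycoprotein hormones. RXFP1 is the receptor for relaxin, the hormone known for the remodelling of connective tissue in pregnancy, and RXFP2 is the receptor for INSL3, which guides the descent of the testis. Both act mainly through the stimulatory G protein and adenylyl cyclase, raising cAMP in the cell. Both are also expressed by neurons of the forebrain. The other relaxin family receptors, RXFP3 and RXFP4, belong to a different branch of the G protein-coupled receptors.

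Total counts ranged from 21513783 to 30063352 per animal. Each sample label holds a letter, D or E, whose meaning is not given in the sources used here. The letter E marked 1 of the WT males, 2 of the *Kdm5c*-KO males, 2 of the WT females, and 3 of the *Kdm5c*-HET females, so letter and genotype are partly confounded in both sexes. *Ttr*, the transthyretin gene and a defining gene of choroid plexus, had over 1000 counts in 6 animals (WT males 2D and 5D, WT females 1D and 3D, and *Kdm5c*-HET females 8E and 9E) and at most 125 in the others. The Log2FC of each receptor within each sex and between WT animals of the sexes is given with and without these animals, and the other genes only with them. The counts of *Kdm5c* itself are not analysed here.

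*Rxfp2* (chromosome 5 of mm10, 150018675 to 150082550) was a low gene in every group and lowest in *Kdm5c*-KO males. Among WT males, 73 reads were counted in animal 2D, 43 in 5D, 46 in 7D, and 37 in 1E. In *Kdm5c*-KO males, the counts were 9 in 4D, 16 in 6D, 16 in 2E, and 11 in 3E. No KO male reached the lowest WT male, in animals of either letter. Scaled to library size as TMM-normalised CPM (reads of the gene relative to all counted reads of the animal), the level was 1.99 ± 0.544 in WT males and 0.510 ± 0.152 in *Kdm5c*-KO males (SD, n = 4 each). This was a Log2FC of -1.96 (standard error 0.307), so the level fell by 74.4%. Of the 17866 genes tested, 10 had a lower male Log2FC than *Rxfp2*. Over all genes tested, 3.87% had every *Kdm5c*-KO male below every WT male, a share printed only as background because *Rxfp2* was chosen on this comparison. Counting error alone is wide at this depth, since 9 reads have an exact 95% Poisson interval of 4.12 to 17.1 and 37 reads one of 26.1 to 51.0. These intervals cover counting error only.

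The male fall of *Rxfp2* was of similar size in the subsets of animals that could be formed. It was -2.03 (standard error 0.366) among animals with the letter D and -1.73 (standard error 0.480) among those with the letter E, where a single WT male stood against 2 KO males. Without the animals with over 1000 *Ttr* counts, which leaves only WT males 7D and 1E, it was -1.88 (standard error 0.330). With each animal left out in turn it stayed between -2.10 and -1.77. The matched choroid plexus genes, *Ttr* and *Aqp1*, are 2 of 8 on the list and were matched because they were called in these animals. *Ttr* was at 201 and 202 CPM in WT males 2D and 5D, at 5.60 CPM in 7D, at 0.277 CPM in 1E, and at 1.59 to 2.21 CPM in the *Kdm5c*-KO males (Log2FC -5.76, q = 0.0643 from edgeR's test), so WT male 1E lay below every *Kdm5c*-KO male. *Aqp1*, a water channel gene of choroid plexus, was at 0.762 to 3.48 CPM in WT and 0.323 to 0.637 CPM in *Kdm5c*-KO males (Log2FC -2.00, q = 0.0642). Both calls were lost without any of WT males 2D and 5D or *Kdm5c*-KO males 2E and 3E, and that of *Ttr* also without 4D or 6D (q = 0.105 to 0.214), while the Log2FC stayed between -5.83 and -5.19 for *Ttr* and between -2.03 and -1.66 for *Aqp1*. The part of choroid plexus in the male fall of *Rxfp2* was not tested beyond the value without the *Ttr*-rich animals. In bulk tissue, fewer cells that express *Rxfp2* and less *Rxfp2* RNA per cell cannot be told apart.

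In females, *Rxfp2* was also lower in the mutants on average, but the fall did not pass the threshold. WT females 1D and 3D had 84 and 81 reads, and WT females 4E and 5E had 33 and 38. The *Kdm5c*-HET females had 27 in 9D, 21 in 6E, 36 in 8E, and 28 in 9E. The groups met at their edges, as *Kdm5c*-HET female 8E (1.43 CPM) lay above WT female 4E (1.38 CPM). Mean levels were 2.16 ± 0.746 CPM in WT females and 1.13 ± 0.244 CPM in *Kdm5c*-HET females (SD, n = 4 each). This gave a Log2FC of -0.94 with a standard error of 0.275 and a 95% interval of -1.52 to -0.37. In edgeR's quasi-likelihood test, with p-values adjusted over all genes tested by the Benjamini-Hochberg method, q was 0.280. At q under 0.1, 0.509% of the genes tested were called in this comparison, and neither receptor was among them. An exact permutation test of the 4 animals against 4 gave p = 0.0571 (two-sided), where 0.0286 is the smallest p the design allows. It was 0.114 after adjustment over 6 permutation tests, which include all females against all males for each receptor.

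The level of *Rxfp2* in WT females differed along a single split, as the 2 animals with the letter D were also the *Ttr*-rich ones. Letter and *Ttr* cannot be told apart among them. With the letter as a covariate in the fit, the female Log2FC was -0.81 (standard error 0.272, q = 0.281), near the value without it. Both WT females with the letter D had 2.77 to 2.82 CPM and both with the letter E had 1.38 to 1.66 CPM, while the single *Kdm5c*-HET female with the letter D had 1.06 CPM and the others 0.844 to 1.43 CPM. The Log2FC was -1.39 (standard error 0.430) within the letter D, where 1 *Kdm5c*-HET female stood against 2 WT females, and -0.40 (standard error 0.339) within the letter E. *Ttr* was at 181 and 191 CPM in WT females 1D and 3D, at 3.29 and 4.25 CPM in WT females 4E and 5E, and highest among the *Kdm5c*-HET females in 8E, the one with the most *Rxfp2*. *Aqp1*, by contrast, was highest among the *Kdm5c*-HET females in 9D (2.64 CPM), the one with the least *Ttr* (0.669 CPM). Among WT males, the *Ttr*-rich animals 2D and 5D had the most and the least *Rxfp2* (2.73 and 1.48 CPM). With the *Ttr*-rich animals left out, which leaves 2 females per group, the Log2FC was -0.67 (standard error 0.378, q = 0.839). The choroid plexus list had 8 genes, of which 2 (*Ttr* and *Aqp1*) could be matched, and their summed level ranged from 4.00 to 195 CPM in WT and from 3.30 to 86.6 CPM in *Kdm5c*-HET females. In males the same sum ranged from 1.48 to 205 CPM in WT and from 1.98 to 2.82 CPM in *Kdm5c*-KO animals. The part of choroid plexus or of the letter in the female difference was not tested further.

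**Figure D1:**
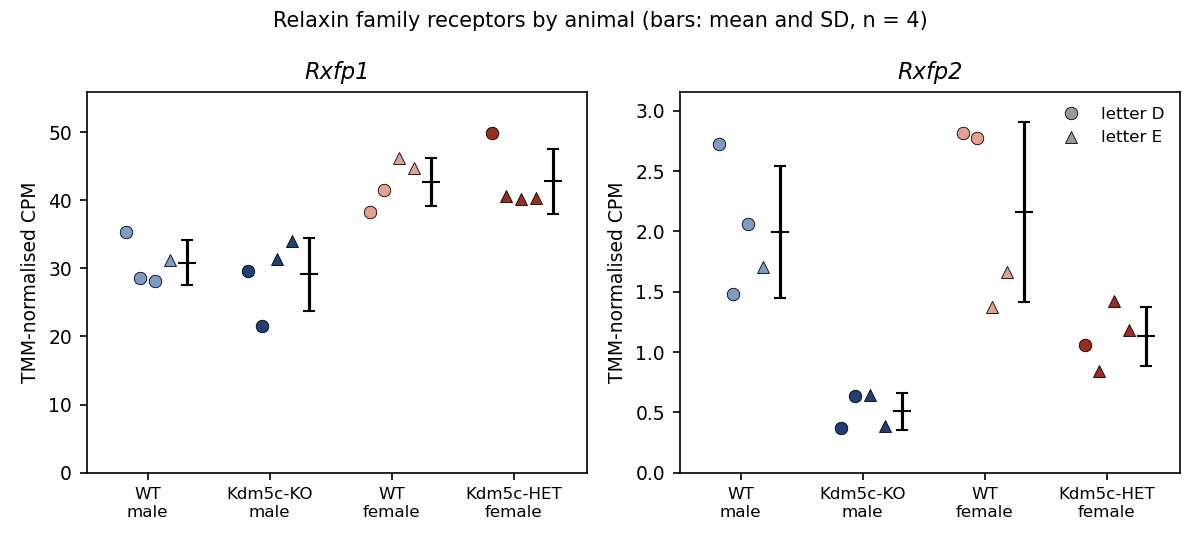
TMM-normalised CPM (y axes, from 0) of *Rxfp1* and *Rxfp2* in each animal of the 4 groups (x axes), with circles for the letter D, triangles for the letter E, and bars for mean and SD over 4 animals. *Rxfp2* was at 0.368 to 0.646 CPM in *Kdm5c*-KO males, under every other animal, and *Rxfp1* was at or above 38.2 CPM in every female and at or below 35.4 CPM in every male.

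Ordered by mean, *Rxfp2* was highest in WT females, then WT males, then *Kdm5c*-HET females, then *Kdm5c*-KO males. The first pair did not differ beyond its spread, with a Log2FC of 0.13 for WT females against WT males (standard error 0.261, 95% interval -0.42 to 0.67, q = 0.85 from edgeR's test). The interval leaves room for a difference of either sign. The Log2FC was 0.42 within the letter D (standard error 0.282) and -0.17 within the letter E (standard error 0.445), where the only WT male is 1E, so no change of sign between the letters can be read from them. WT males (1.48 to 2.73 CPM) and *Kdm5c*-HET females (0.844 to 1.43 CPM) had ranges that were apart, as in 6.25% of the genes tested, and every *Kdm5c*-HET female was above every *Kdm5c*-KO male, as in 4.13%. These groups differ in both sex and genotype, and no test was made of them. The Log2FC in males was lower than that in females by 1.02 (standard error 0.415), a difference that holds the male values and is therefore described only.

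*Rxfp1* (chromosome 3 of mm10, 79641600 to 79737951) was counted with far more reads and showed no genotype difference of the size seen for *Rxfp2*. In WT males there were 946 reads in 2D, 828 in 5D, 628 in 7D, and 678 in 1E. *Kdm5c*-KO males had 722 in 4D, 541 in 6D, 775 in 2E, and 965 in 3E. The male groups overlapped, at 30.8 ± 3.33 CPM in WT and 29.1 ± 5.37 CPM in KO animals (SD, n = 4 each). The Log2FC of -0.08 (standard error 0.112, 95% interval -0.32 to 0.15) is given without a test, as for *Rxfp2*. It was -0.26 (standard error 0.118) within the letter D and 0.06 (standard error 0.092) within the letter E, where 1E is the only WT male. Without the *Ttr*-rich animals, which leaves only WT males 7D and 1E, it was -0.03 (standard error 0.142).

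In WT females, *Rxfp1* had 1140 reads in 1D, 1211 in 3D, 1108 in 4E, and 1022 in 5E. *Kdm5c*-HET females had 1268 in 9D, 1012 in 6E, 1012 in 8E, and 953 in 9E. The means were 42.7 ± 3.56 CPM and 42.8 ± 4.75 CPM (SD, n = 4 each). With a Log2FC of 0.01 and a standard error of 0.109, the difference was far from the threshold (q = 1, edgeR). The 95% interval of -0.22 to 0.23 does not reach the Log2FC of -0.94 of *Rxfp2* in the same animals. The near-equal means held a split by letter, as *Kdm5c*-HET female 9D stood at 49.9 CPM above both WT females of its letter (38.2 and 41.5 CPM), while the other *Kdm5c*-HET females, at 40.1 to 40.7 CPM, stood below both WT females with the letter E (46.2 and 44.8 CPM). The Log2FC was 0.32 within D, a value with 1 *Kdm5c*-HET female and therefore given without a test, and -0.17 (standard error 0.0656, q = 0.451) within E. An exact permutation test of the 4 females against 4 gave p = 1 for *Rxfp1*.

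*Rxfp1* differed between the sexes. Every one of the 8 females, at 38.2 to 49.9 CPM, was above every one of the 8 males, at 21.5 to 35.4 CPM, a separation that was noticed in the values and that 0.549% of the genes tested showed in this direction. Between WT females and WT males the Log2FC was 0.47 (standard error 0.111, 95% interval 0.24 to 0.70, q = 0.0383 from edgeR's test), or 38.2% more in females. In this comparison 5.0% of the genes tested were called, 2.59% with the higher level in females. The exact permutation test gave p = 0.0286 for the 4 WT females against 4 WT males, the smallest this size allows. Adjusted over the 6 tests it was 0.0857, but these include all females against all males for each receptor. For *Rxfp1* that separation was noticed in the values and its low p lowers the adjusted value, which is therefore not used as support.

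The sex difference in *Rxfp1* had the same direction within each letter, with a Log2FC of 0.37 (standard error 0.112, q = 0.165) among animals with the letter D and 0.54 among those with the letter E, where the single WT male 1E stood against 2 WT females and no test is given. It lost its call without WT male 5D (q = 0.141), WT male 7D (q = 0.106), or WT female 5E (q = 0.133), with a Log2FC of 0.43 to 0.44. Without the *Ttr*-rich animals, which leaves 2 WT animals of each sex, it was 0.61 (standard error 0.161, q = 0.274). Some regional markers also differed between WT females and WT males. *Zbtb20*, a transcription factor of hippocampal pyramidal neurons, rose by 0.35 (q = 0.0255), from 111 to 134 CPM in WT males to 144 to 178 CPM in WT females, a call that was lost without WT female 5E (q = 0.11). *Emx1*, a transcription factor of the dorsal forebrain, was lower in WT females (Log2FC -0.24, q = 0.0823), a call lost without any of several animals, with q up to 0.278. Only 1 of the 5 hippocampal markers and few of the cortical ones could be matched to a row, so the makeup of the dissected tissue could be followed only in part, and its share in the sex difference of *Rxfp1* was not tested.

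For *Rxfp2*, then, the ranges were apart between male genotypes, and for *Rxfp1* between the sexes. The receptors can also be compared without scaling to depth by the share of *Rxfp2* among the reads of both genes, which can be compared between animals but not read as a ratio of levels, since the transcripts differ in length. The WT males had shares of 4.94% to 7.16%, and the *Kdm5c*-KO males had 1.13% to 2.87%, without overlap. In females it was 2.89% to 6.86% in WT and 2.03% to 3.44% in *Kdm5c*-HET animals, which overlap. *Kdm5c*-KO male 4D, for instance, had a share of 1.23% (exact binomial 95% interval 0.564% to 2.32%) and WT male 2D one of 7.16% (5.66% to 8.92%). The spread between animals of a group, as edgeR's biological coefficient of variation, was 10.9% for *Rxfp1* and 23.3% for *Rxfp2*, against 7.63% and 21.8% for the trend of all genes at the same abundance.

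**Figure D2:**
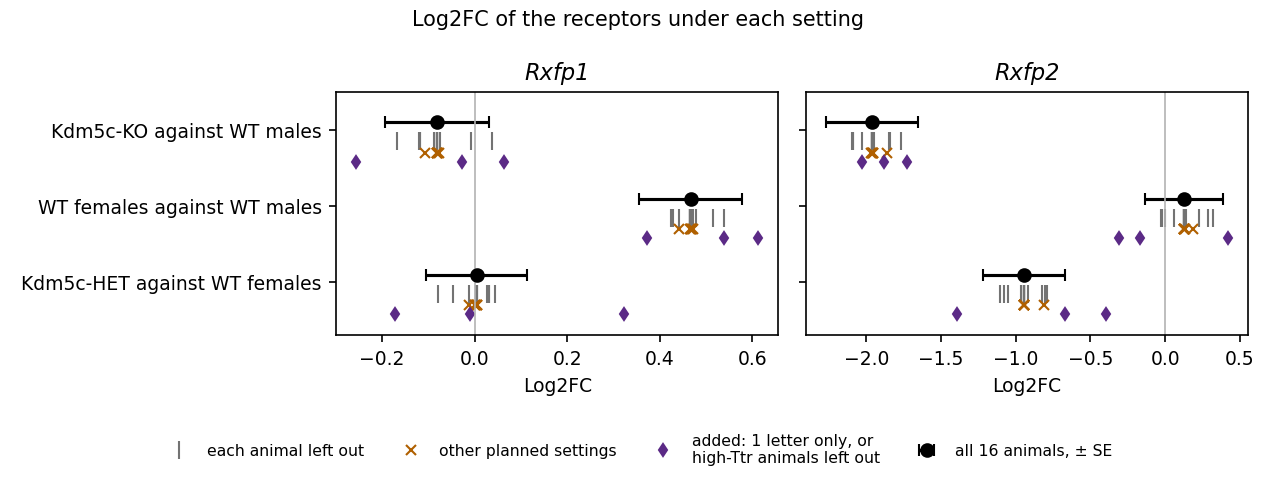
Log2FC (x axes) of *Rxfp1* and *Rxfp2* for each comparison (rows), from all 16 animals with its standard error (black circles), with each animal left out (ticks), under other planned settings (crosses), and in subsets added after the values were seen (diamonds). The male values of *Rxfp2* lie between -2.10 and -1.73 throughout, whereas its female values spread from -1.39 to -0.40.

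The genes of the study's list, which pairs identifiers with symbols, were compared with the receptors by the Pearson correlation of log2 CPM over the 16 animals. These coefficients are descriptions, since the animals share groups, letters, and library depth, and the list holds only genes that were called in these animals. For *Rxfp2* the 5 most alike of 1010 named genes were *Cux2* (r = 0.888), *Snx19* (r = 0.878), *Cux1* (r = 0.873), *Cacna1i* (r = 0.868), and *Ptpru* (r = 0.867). No gene among all those tested, named or not, had a higher coefficient than *Cux2*. *Cux2* and *Cux1* encode homeodomain transcription factors of upper-layer cortical neurons, and *Cux2* was among the cortical markers listed. *Cux2* ranged from 151 to 174 CPM in the WT males against 131 to 139 CPM in *Kdm5c*-KO males (Log2FC -0.25, standard error 0.0509, q = 0.00794 from edgeR's test). In the WT females it ranged from 152 to 174 CPM, against 141 to 157 CPM in *Kdm5c*-HET females (Log2FC -0.17, standard error 0.0508, q = 0.296). The male change was thus in the direction of *Rxfp2* but far smaller.

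After each group's mean was subtracted, the named genes most like *Rxfp2* were *Tm9sf2* (r = 0.793), *C230014O12Rik*, *Pitpnm3*, *Kcnip2*, and *Zfp804b* (r = 0.717), none of them shared with the first set. For *Rxfp1* the most alike were *Wnk1* (r = 0.804), *Dcdc2b*, *Adam11*, *Jpx*, and *Shank1* (r = 0.704), with 362 genes that could not be named ahead of *Wnk1*. On deviations from the group means they were *Irak1* (r = 0.873), *Nwd1*, *Tmc6*, *Slc16a11*, and *Wnk1* (r = 0.777).

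*Rxfp2* lies among several genes of that list. RefSeq places 17 other protein-coding genes within 1 Mb of *Rxfp2*, and 5 of them are in the list (*Alox5ap*, *Medag*, *Wdr95*, *Hsph1*, and *B3glct*), all on the side of lower coordinates. Its nearest protein-coding neighbours on the other side, *Fry* and *Zar1l*, are not in the list and are not analysed here. Near *Rxfp1*, none of the 9 protein-coding genes within 1 Mb is in the list. A count of 5 is not rare, as 18.0% of the 1007 listed genes with a RefSeq position had at least 5 others within 1 Mb (median 1). The window was set after the values were seen, and all 5 were listed because they were called in these animals, so their calls are not independent evidence. The short lncRNA gene *Gm38755* lies within *Rxfp2*. The libraries were stranded, but the strand setting of the counting is not given in the sources used here, so reads of *Gm38755* could be counted on *Rxfp2*.

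The neighbours moved in both directions. *B3glct*, which encodes a glucosyltransferase and ends 256 kb before *Rxfp2*, ranged from 55.2 to 62.2 CPM in the WT males against 46.1 to 49.9 CPM in *Kdm5c*-KO males (Log2FC -0.27, standard error 0.0511, q = 0.00451 from edgeR's test). In the WT females it ranged from 57.2 to 63.3 CPM, against 50.1 to 55.7 CPM in *Kdm5c*-HET females (Log2FC -0.17, standard error 0.0508, q = 0.323). *Hsph1*, a heat shock chaperone gene 382 kb away, was at 227 to 251 and 185 to 196 CPM in males (Log2FC -0.34, q = 1.37e-05) and at 241 to 253 and 209 to 230 CPM in females (Log2FC -0.18, q = 0.0511). The female call of *Hsph1* was lost without any of WT females 1D, 3D, and 5E or *Kdm5c*-HET females 9D, 6E, and 8E (q = 0.117 to 0.258). For both genes every mutant was below every WT animal of its sex, as for 0.168% of the genes tested in both sexes at once and 1.69% in females alone. In females *Rxfp2* missed this by the overlap of *Kdm5c*-HET female 8E with WT female 4E.

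*Wdr95*, 407 kb from *Rxfp2*, moved the opposite way, from 0.986 to 1.64 CPM in WT males to 4.73 to 6.30 CPM in *Kdm5c*-KO males (Log2FC 2.13, standard error 0.209, q = 1.73e-06). It rose from 1.30 to 2.08 CPM in WT females to 2.25 to 4.18 CPM in *Kdm5c*-HET females (Log2FC 0.96, standard error 0.207, q = 0.0473), where 2.78% of the genes tested had every mutant above every WT animal. Its female call was lost without any of WT females 3D and 5E or *Kdm5c*-HET females 9D and 6E (q = 0.132 to 0.242). *Medag* rose in males (Log2FC 1.05, q = 0.00122) but had a Log2FC of 0.02 in females (standard error 0.194, q = 0.999). *Alox5ap*, which encodes a protein needed for leukotriene synthesis, rose in males (Log2FC 0.88, q = 0.0459; lost without WT males 5D or 1E or *Kdm5c*-KO males 2E or 3E, q = 0.109 to 0.144), with a Log2FC of 0.35 in females (q = 0.936). The male and female changes of these 5 neighbours were not shown to differ (q = 0.424 to 0.849 for the difference). In males all 3 had every KO animal above every WT animal, as did 5.04% of the genes tested.

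**Figure D3:**
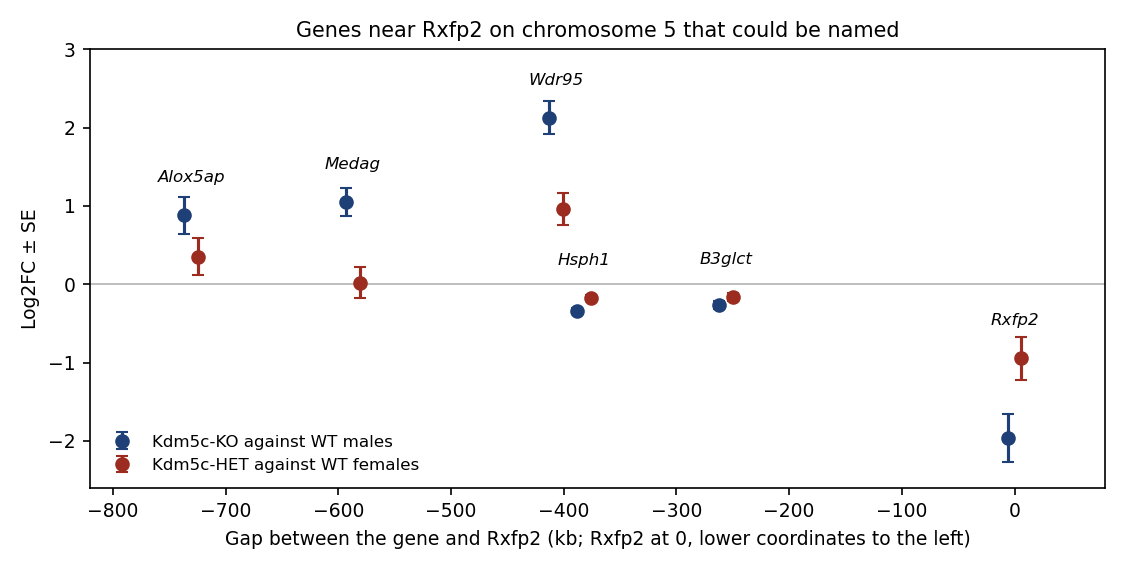
Log2FC with its standard error (y axis) of *Rxfp2* and the 5 listed genes within 1 Mb of it on chromosome 5, against the gap to *Rxfp2* in kb (x axis, lower coordinates to the left), in males (blue) and females (red). *Alox5ap*, *Medag*, and *Wdr95* lie above 0 in males, and *Hsph1*, *B3glct*, and *Rxfp2* lie under 0 in both sexes.

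The other genes of the relaxin pathway could be followed only where the study's list names them. Of 61 pathway genes considered, 4 could be matched, and none of the ligands (*Rln1*, *Rln3*, *Insl3*, *Insl5*, and *Insl6*) or of the other receptors (*Rxfp3* and *Rxfp4*) was among them. Because the list holds only called genes, the 3 of these 4 called in males and the 1 called in females (against 5.24% and 0.509% of all genes tested) say nothing of the pathway as a whole. *Adcy7*, one of the adenylyl cyclases that make cAMP, passed in both sexes. It ranged from 22.1 to 24.8 CPM in the WT males against 36.3 to 38.6 CPM in *Kdm5c*-KO males (Log2FC 0.63, standard error 0.0731, q = 1.64e-05). In females it rose from 22.7 ± 2.48 CPM (SD, n = 4) in WT to 31.3 ± 2.48 CPM in *Kdm5c*-HET animals (Log2FC 0.46, standard error 0.0735, q = 0.00332). In neither sex did mutants and WT animals overlap, against 5.04% of the genes tested with every KO male higher and 2.78% with every HET female higher, and the direction was opposite to that of *Rxfp2* in males.

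*Adcy1*, the calcium-stimulated adenylyl cyclase of neurons, had a Log2FC of -0.18 in males (q = 0.119) and -0.09 in females (q = 0.933). *Tshr*, the thyrotropin receptor and a relative of the relaxin receptors, rose by a Log2FC of 0.56 in males (standard error 0.121, q = 0.0115) and had 0.27 in females (standard error 0.121, q = 0.715). *Mmp2*, a matrix metalloproteinase gene that relaxin is known to induce in connective tissue, rose by 0.47 in males (standard error 0.130, q = 0.0544; lost without any of WT males 2D, 5D, and 7D or *Kdm5c*-KO male 3E, q = 0.115 to 0.184), with 0.06 in females (standard error 0.130, q = 0.993).

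Few of the markers of cell types and regions that the dissection could hold could be matched. Those matched were in the study's list because they were called in these animals. Their calls between genotypes are therefore not independent evidence and say nothing of the unmatched markers. Of the cortical markers, *Cux2* was lower in *Kdm5c*-KO males, as given above. *Zbtb20* rose in *Kdm5c*-KO males (Log2FC 0.27, q = 0.0422; lost without WT males 5D or 1E or *Kdm5c*-KO male 3E, q = 0.101 to 0.165), with a Log2FC of 0.09 in females (q = 0.954). *Prkcd*, 1 of 8 markers of thalamus and habenula, rose in *Kdm5c*-KO males (Log2FC 0.53, q = 0.00505) and had a Log2FC of 0.27 in females (q = 0.575). *Htr3a*, 1 of 8 interneuron markers, rose in males (Log2FC 0.56, q = 0.0705; lost without WT males 5D or 7D or *Kdm5c*-KO males 2E or 3E, q = 0.119 to 0.217) and had 0.03 in females (q = 0.999). No marker of striatum or meninges could be matched. *Cux2* thus moved with *Rxfp2* in males, and the part of cortical makeup in the fall of *Rxfp2* was not tested.

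**Figure D4:**
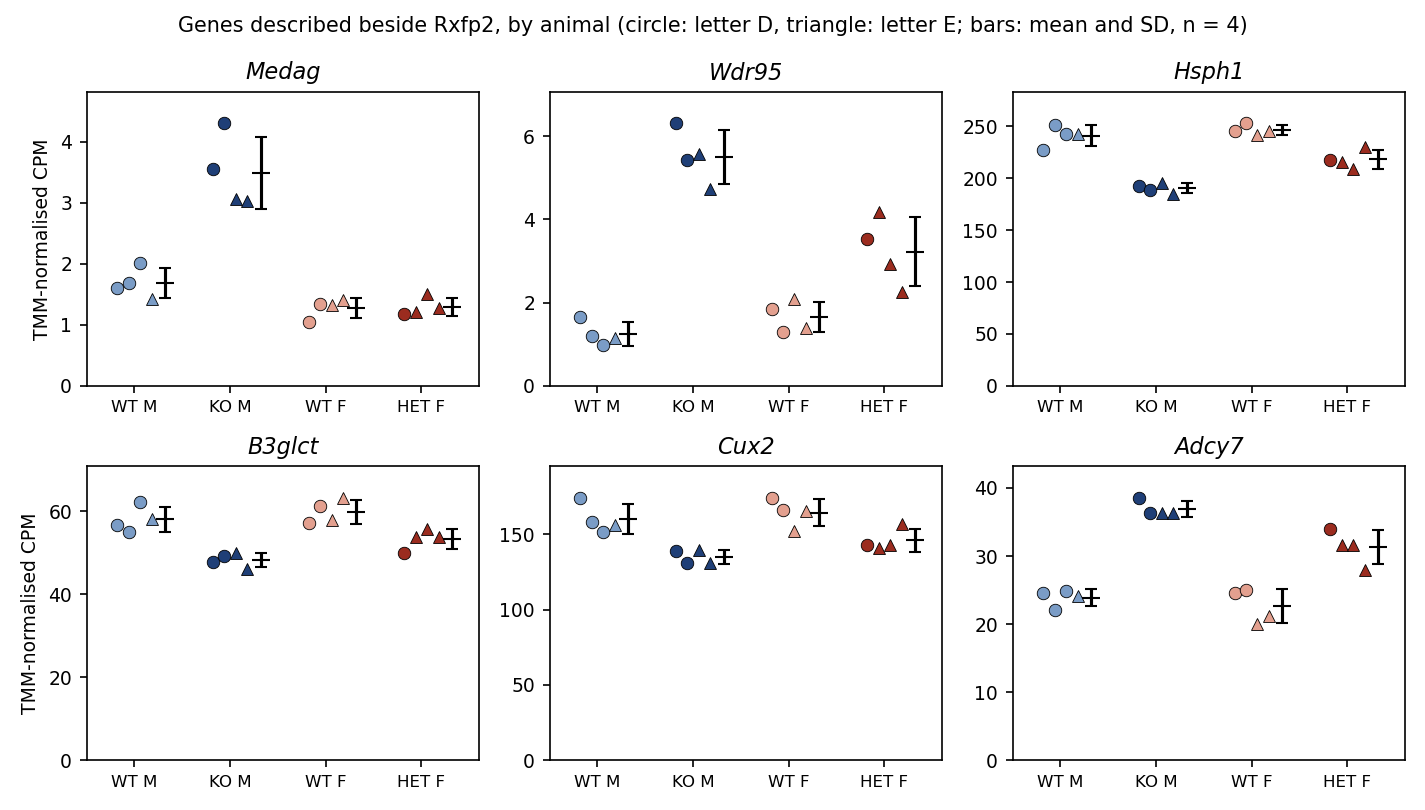
TMM-normalised CPM (y axes, from 0) of genes described beside *Rxfp2* in each animal of the 4 groups (x axes; M, males; F, females), with circles for the letter D, triangles for the letter E, and bars for mean and SD over 4 animals. *Hsph1* and *B3glct* were lower and *Wdr95* and *Adcy7* higher in every mutant than in every WT animal of its sex, and *Cux2* was so separated only in males.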

How the data were processed

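The authors deposited counts, the number of reads on each of 54219 Ensembl genes in each of 16 animals, without normalization. They mapped paired-end reads of directional poly(A) libraries to mm10 with STAR 2.5.3a, discarded duplicates and reads that mapped to several places, and used FeatureCounts (Subread 1.5.0) for counting. Each column was matched to its animal by its label. Per its methods, the study used 4 animals per genotype. The labels do not say whether animals shared a litter. Tests used edgeR 4.0.16 under R 4.3.3 (filterByExpr, TMM, and glmQLFit with 1 mean per group over all 16 animals and no covariate), with p-values adjusted by the Benjamini-Hochberg method over 17866 genes (q) and a threshold of 0.1. The code was tested on simulated data. The 24 pairs of animals within a group differed by 2.85 to 14.8 in chi-square per gene, above sampling noise. Log2 CPM used a prior count of 2.

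Alternatives were DESeq2 1.42.0, its size factors, no filter, a mean count of at least 10, a fit of the compared animals only, the label letter as a covariate, and each animal left out in turn. The letter and *Ttr* subsets were chosen after seeing the data. The members and gene lists were chosen with earlier results of these data known. Named genes are the pair, pathway and marker genes called in either sex, the 2 nearest protein-coding genes on each side, and the 5 genes most alike by correlation; *Adcy1*, *Alox5ap*, *Medag*, and *Wdr95* were chosen after their values were seen. Symbols came from the study's list of called genes (1014 matched) and positions from RefSeq on GRCm38.p6. The fold changes and q-values in that list were not used. A marker and the sums that include it are not reported here.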

Additional observations from a re-analysis of the deposited data

Results flagged for a closer look

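Among the *Kdm5c*-HET females, animal 9D stood apart from the others in *Rxfp1*, at 49.9 CPM against 40.1 to 40.7 CPM. Its gap to the nearest animal was 0.945 of the range of the group, above Dixon's 95% limit for 4 samples. It is the only *Kdm5c*-HET female with the letter D. Chance marks about 1 in 20 such groups, and 8 were examined. Without it the Log2FC of *Rxfp1* in females was -0.08 (standard error 0.111, q = 0.939 from edgeR's test).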

How the results depend on the processing

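*Rxfp2* in males kept its direction and size throughout, with Log2FC from -2.10 to -1.77 with 1 animal left out and from -2.03 to -1.73 under the other settings. Its female Log2FC lay between -1.10 and -0.79 with 1 animal left out (q from 0.141 to 0.668). It passed the threshold only without the filter on low counts (-0.95, standard error 0.270, q = 0.0900), although more genes were then tested. DESeq2 gave q = 0.192. The fit without the filter also lowered the standard error of the sex difference of *Rxfp1*, from 0.111 to 0.0751 (q = 2.92e-06, edgeR). For WT females against WT males, the small Log2FC of *Rxfp2* ranged from -0.031 to 0.32 with 1 animal left out and turned to -0.17 in the letter E animals, with a single WT male, and to -0.31 without the *Ttr*-rich animals; DESeq2 gave it no q. The female Log2FC of *Rxfp1*, near 0, ranged from -0.079 to 0.045 with 1 animal left out and turned to -0.012 with the letter as a covariate, to -0.17 in the letter E animals, and to -0.010 without the *Ttr*-rich animals. The sex difference of *Rxfp1* ranged from 0.43 to 0.54 with 1 animal left out (q from 0.0133 to 0.141) and missed the threshold in the letter D animals (0.37) and without the *Ttr*-rich animals (0.61), where fewer samples were fitted. The male Log2FC of *Rxfp1* ranged from -0.17 to 0.04 with 1 animal left out. The male minus female difference ranged from -1.17 to -0.82 for *Rxfp2* and from -0.17 to 0.04 for *Rxfp1*. Of the 4 matched pathway genes, 2 to 4 were called in males and 1 in females with 1 animal left out, and 2 in males at q under 0.05. The cause was not tested for any other change named here.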
